A study of Mus musculus with 6 samples.

Results

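Actin was examined as a gene family: the 6 protein-coding genes Acta1, Acta2, Actb, Actc1, Actg1 and Actg2 were taken by symbol and biotype from a table of 78409 genes, 21807 of them protein-coding, and each of the 6 symbols matched 1 row. RNA came from nephrogenic stroma, the connective tissue of the outer zone of the fetal kidney where nephrons form, sorted for PDGFRa from kidneys pooled within litters of wild-type CD1 fetuses at embryonic day 18 (E18). The low adhesion group (3 libraries) was cultured for 18 h on coverslips with a film of PDMS, a silicone elastomer, first soaked in bovine fibronectin at 500 ng/mL, and the high adhesion group (3 libraries) on the same film soaked at 50000 ng/mL. Each of 3 litters gave 1 library to each group, so every replicate is a pool of kidneys from 1 litter. All cells passed through a sorting medium with Y27632, an inhibitor of the kinase ROCK, and were kept in medium with fetal bovine serum.

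Actin monomers polymerize into the filaments that shape cells, carry tension from adhesion sites and slide against myosin. Actb and Actg1 encode the cytoplasmic beta and gamma actins found in nearly every cell. Acta2 and Actg2 encode the smooth muscle alpha and gamma actins, Acta1 the skeletal and Actc1 the cardiac alpha actin, and Acta2 is also the usual marker of myofibroblasts and of vascular smooth muscle. When monomers are drawn into filaments, the cofactors MRTFA and MRTFB are released to the nucleus, where they act with the transcription factor SRF on a DNA element called the CArG box, and several actin genes are textbook targets of that pathway.

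The isoforms are close copies that differ in their first codons, which is why these are shown. The lines below give the first 45 coding bases of each, read from GENCODE M21 transcripts (build GRCm38), with a stretch that all 6 share (GACAANGGC) in capitals to show where the frames line up.
Actb: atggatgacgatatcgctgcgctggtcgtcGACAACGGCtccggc
Actg1: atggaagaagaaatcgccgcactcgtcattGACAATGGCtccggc
Acta2: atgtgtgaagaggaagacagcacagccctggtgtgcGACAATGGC
Actg2: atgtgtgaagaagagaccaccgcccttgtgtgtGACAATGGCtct
Acta1: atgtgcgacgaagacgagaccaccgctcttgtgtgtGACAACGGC
Actc1: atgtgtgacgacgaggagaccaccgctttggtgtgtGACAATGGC
The shared stretch comes after 10 codons in the cytoplasmic genes, after 11 in Actg2 and after 12 in Acta1, Acta2 and Actc1. The coding sequences have 375, 376 and 377 codons in the same order. Identity between aligned coding sequences was 88.7% for Actb and Actg1, the closest pair, and 81.5% for Actg1 with either Acta2 or Actc1, the lowest values of the 15 pairs.

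Because reads from near-identical stretches can be split between genes, the part of each transcript that also occurs elsewhere was measured. Of all 50-base windows of the Actg1 transcript, 56.7% occurred letter for letter in a transcript of another gene, against 14.2% for Actb, 2.22% for Acta1 and 0.352% for Acta2, and 0 of 1424 windows for Actc1 and 0 of 1284 for Actg2. Windows shared with another actin isoform made up 1.94% of the Actg1 and 2.56% of the Actb transcript. For Acta1 these were 28 of its 31 shared windows and for Acta2 7 of 7. With windows of 100 bases none were shared between isoforms. Fractional counts in the table fell in a similar order. Actb and Actg1 held them in 6 of 6 libraries, Acta1 in 4, Acta2 in 2, and Actc1 and Actg2 in none. The processed pseudogene Actg-ps1 held 31.1 to 140 counts per library and Actb-ps1 1.00 to 2.54 counts. How reads from shared stretches were assigned bears most on Actg1 and Actb, and was not tested. Adding the pseudogene rows to them left their calls as they were. These rows are small beside the 57378 to 67310 counts of Actg1 and 200180 to 232410 of Actb. The addition therefore cannot show how such reads were assigned.

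Libraries held 12596249 to 13508257 counts, and a single count is worth 0.0740 to 0.0794 CPM, the unit in which each library's total is set to the same size. The comparison of substrates used edgeR with litter as a block, and a gene is called where its adjusted p is under 0.05. This gave 1416 of 14834 tested genes (9.55%), of which 717 (4.83%) were lower at high adhesion. Without the replicate block 36 genes passed (0.243%), and 9.16% had an unadjusted p under 0.05. Levels of marker genes other than Myh11 are deposited CPM, and those of Myh11 and all other genes below are CPM after TMM scaling. Stromal markers were present in every library, with Vim at 3053 to 4052 CPM, Foxd1 at 157 to 216 CPM and Pdgfra, the sorted receptor, at 16.9 to 33.6 CPM. Of the 11 stromal markers, 8 fell and 1 (Vim) rose, and the lowest adjusted p values were those of Meis2, Col3a1, Pdgfra and Pdgfrb, with log2 fold changes of -0.40, -0.34, -0.55 and -0.56. Summed epithelial markers (10 genes) ranged from 271 to 563 CPM on the low substrate and from 393 to 813 CPM on the high one, and were higher in 3 of 3 litters, with Krt18 giving most of the sum. Of the 8 tested, Krt18, Krt8 and Cldn6 rose, by log2 fold changes of 0.73, 0.87 and 2.06, Gata3 fell by 0.37, and Epcam, at 5.58 to 8.06 CPM, did not pass. Cldn6 was scarce, at 0.380 to 0.683 CPM on the low substrate and 1.78 to 2.78 CPM on the high one. Summed markers of leukocytes, endothelium and nephron progenitors reached at most 59.7, 52.3 and 68.8 CPM, and 1 gene of each list was called: Lyz2 rose (log2 fold change 0.37), Emcn fell (-0.33) and Cited1 rose (0.29). DESeq2, which called 406 of all genes, called none of these 3. The part that these shifts have in the actin results was not tested, and in bulk RNA fewer cells of a type and less RNA per cell cannot be told apart.

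Actin mRNA made up a larger part of the transcriptome at high adhesion in each litter, and the isoforms differed in how much they changed. All 6 genes passed the filter on low counts. The muscle isoforms Acta2, Acta1, Actg2 and Actc1 rose 1.45-fold to 2.35-fold, while cytoplasmic Actb rose 1.07-fold, and Actg1, with a fold of 1.07, missed the threshold. Thus 5 of 6 isoforms were called higher and none lower, where 4.71% of all genes tested were called higher. DESeq2 called 2 of the 6 higher, limma-voom called 6, and edgeR called 3 without litter 2 and 0 without the replicate block. Over all genes, 699 were called higher in edgeR with all litters, 207 in DESeq2, 642 in limma-voom and 734 in edgeR without litter 2. The fit without the block called 0.243% of all genes tested. Each isoform was above its low adhesion partner in 3 of 3 litters, which held for 20.9% of genes tested. The median log2 fold change of the 6 was 0.54, beside -0.0012 over all genes tested.

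**Figure D1:**
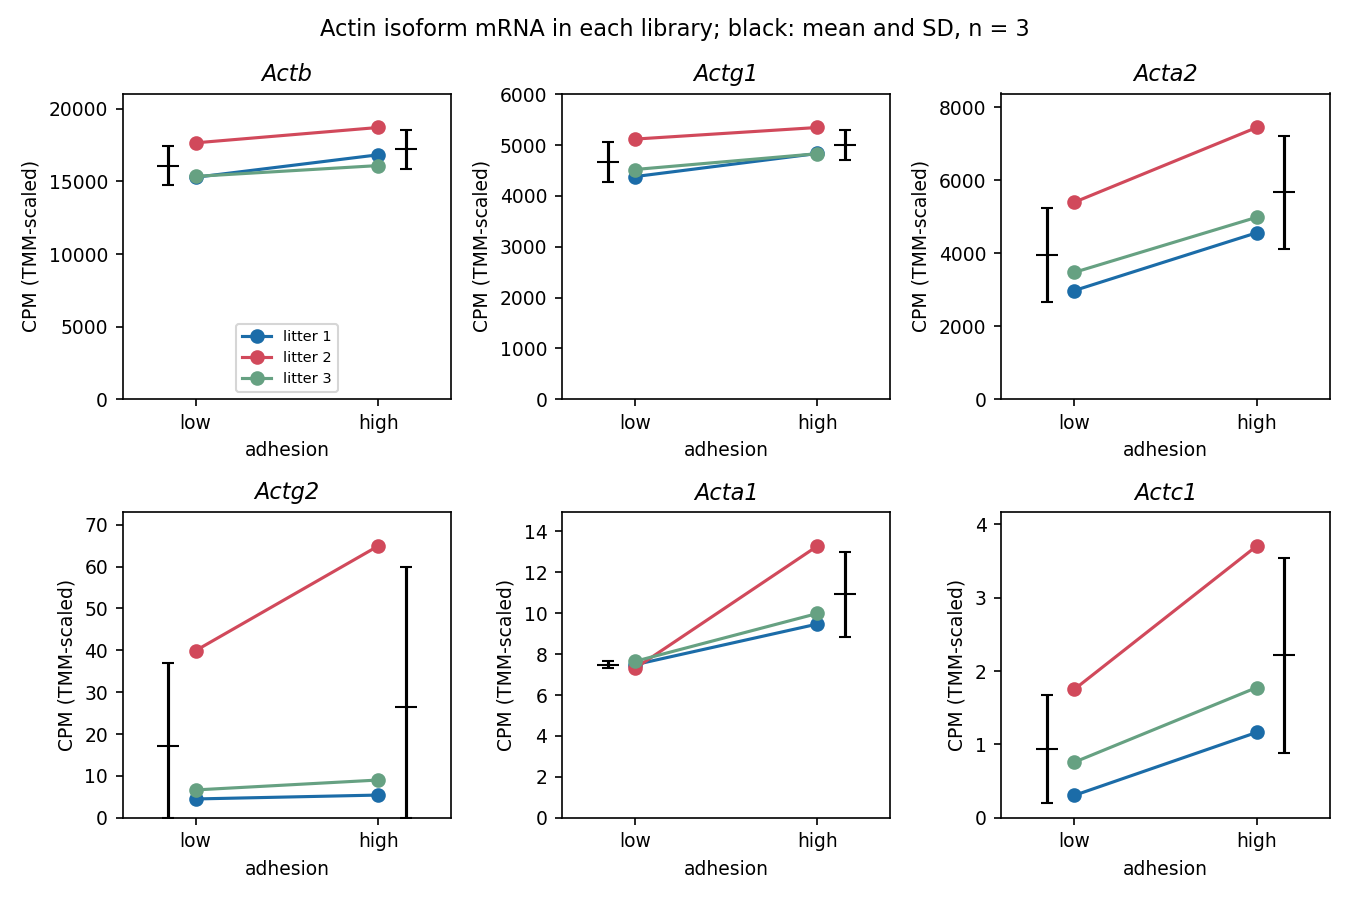
CPM (after TMM scaling, y axis from 0) of each actin isoform at low and high adhesion, with 1 colour and line per litter and the mean ± SD (n = 3) in black. The SD bars of Actg2 are drawn down to 0 because the SD is larger than the mean. All 18 lines slope upwards, and litter 2 (red) is the highest in every panel at high adhesion.

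Acta2 (ENSMUSG00000035783) was the most abundant muscle isoform. At low adhesion it stood at 2978, 5395 and 3476 CPM in litters 1, 2 and 3, and at high adhesion at 4561, 7444 and 4986 CPM. The groups overlapped, because litter 2 at low adhesion lay above litters 1 and 3 at high adhesion, yet within litters the ratio was 1.53, 1.38 and 1.43. The log2 fold change was 0.53 ± 0.03 (standard error, n = 3 litters, edgeR adjusted p = 5.88e-11), and it ran from 0.49 to 0.57 with 1 litter left out. Without the replicate block the same change did not pass (edgeR adjusted p = 0.699). The SD between litters was 32.3% of the mean at low adhesion.

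Acta1 (ENSMUSG00000031972), the skeletal muscle isoform, was scarce. It stood at 7.48, 7.30 and 7.65 CPM at low adhesion and at 9.47, 13.3 and 9.99 CPM at high adhesion. It was the 1 isoform whose high libraries all lay above its low libraries, which held for 7.95% of genes tested. The log2 fold change was 0.54 ± 0.12 (standard error, n = 3 litters, edgeR adjusted p = 0.00308). The within-litter ratio of 1.82 in litter 2 was above the 1.27 and 1.31 of litters 1 and 3, and without litter 2 the log2 fold change was 0.36 and did not pass (edgeR adjusted p = 0.0974).

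Actg2 (ENSMUSG00000059430), the gamma actin of visceral smooth muscle, varied most between litters. It stood at 4.51, 39.9 and 6.66 CPM in litters 1, 2 and 3 at low adhesion and at 5.43, 64.9 and 9.03 CPM at high adhesion. Litter 2 was above both other litters by more than 5 times on both substrates, and the ratio of high to low was 1.21, 1.63 and 1.35. The log2 fold change was 0.60 ± 0.09 (standard error, n = 3 litters, edgeR adjusted p = 3.65e-05). Without litter 2 it was 0.37 ± 0.16 and did not pass (edgeR adjusted p = 0.152).

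Actc1 (ENSMUSG00000068614), the cardiac isoform, was close to the limit of detection. Its counts were 4, 23 and 10 at low adhesion and 15, 46 and 24 at high adhesion, and a count of 3 is the level below which the gene would be taken as not detected. In CPM these are 0.305, 1.75 and 0.757, and then 1.16, 3.70 and 1.78. The groups overlapped between litters, but within litters the ratio was 3.81, 2.12 and 2.35. The log2 fold change of 1.23 ± 0.26 (standard error, n = 3 litters, edgeR adjusted p = 0.00172) was the largest of the 6 and had the largest error.

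Actb (ENSMUSG00000029580) carried most of the actin mRNA. It stood at 15287, 17658 and 15346 CPM at low adhesion and at 16834, 18714 and 16092 CPM at high adhesion. Every high library lay 1.05 to 1.10 times above its own litter's low library, but litter 2 at low adhesion was above litters 1 and 3 at high adhesion. The log2 fold change was 0.10 ± 0.03 (standard error, n = 3 litters, edgeR adjusted p = 0.0436), and it failed to pass without any 1 of the 3 litters and in DESeq2 (adjusted p = 0.290).

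Actg1 (ENSMUSG00000062825), the other cytoplasmic isoform, stood at 4382, 5119 and 4521 CPM at low adhesion and at 4836, 5348 and 4832 CPM at high adhesion. The ratios within litters were 1.10, 1.04 and 1.07. Its log2 fold change was 0.10 ± 0.03 (standard error, n = 3 litters, edgeR adjusted p = 0.0557), so the call falls on the other side of the threshold from Actb with values of the same size. It passed in limma-voom (adjusted p = 0.0138).

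**Figure D2:**
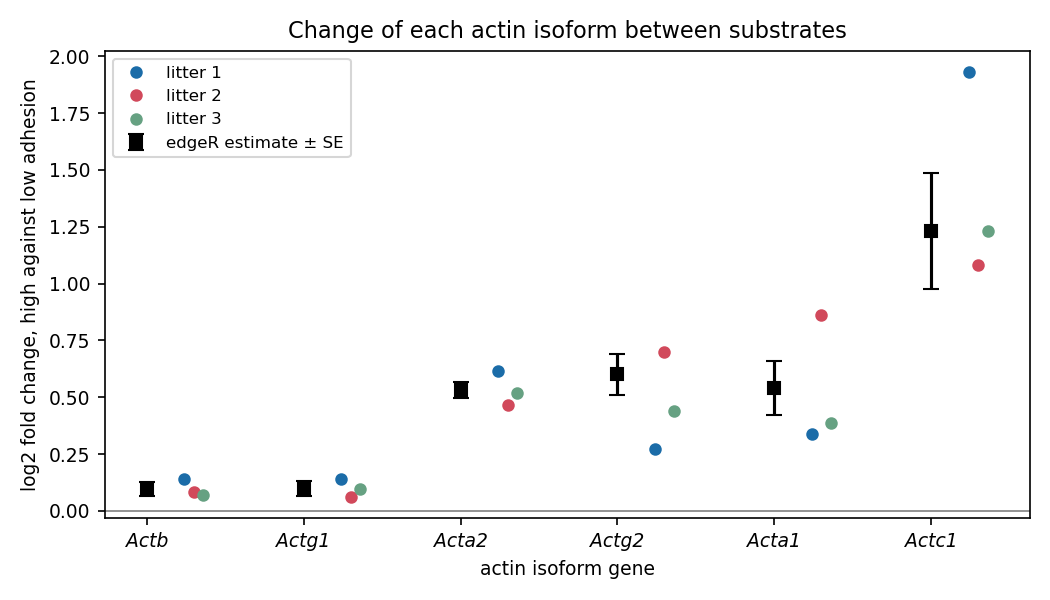
Log2 fold change (high against low adhesion, y axis) of each isoform (x axis), with the edgeR estimate ± standard error as a black square and the log2 ratio of CPM in each litter as a coloured dot. The cytoplasmic isoforms sit near 0.10, Acta2, Actg2 and Acta1 between 0.53 and 0.60, and Actc1 at 1.23 with the widest bar.

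Whether the isoforms moved apart was read from ratios within a library, which do not depend on how libraries are scaled. The ratio of Acta2 to Actb was 0.195, 0.306 and 0.226 at low adhesion and 0.271, 0.398 and 0.310 at high adhesion, a log2 change of 0.48, 0.38 and 0.45 in the 3 litters (mean 0.44 ± 0.05, SD). The direction was the same in each litter, and the SD between litters was small beside the mean. With 3 litters the exact two-sided sign-flip permutation test cannot go below p = 0.25, which is the value it gave (0.375 adjusted over the 9 ratios compared). The ratio of Acta2 to Actg1 changed by 0.47, 0.40 and 0.42 on the log2 scale.

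Among the scarce muscle isoforms the ratio to Actb was also higher in 3 of 3 litters. The log2 change against Actb was 0.21, 0.77 and 0.32 for Acta1, 0.13, 0.62 and 0.37 for Actg2, and 1.79, 1.00 and 1.16 for Actc1 (exact permutation p = 0.25 each). Against Acta2 there was no common direction for Acta1, with changes of -0.27, 0.39 and -0.13. The change of Acta2 against Actg2 was 0.34, -0.24 and 0.08. Actc1 was higher against Acta2 in each litter, by 0.62 or more on the log2 scale.

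The balance of both cytoplasmic isoforms moved by less than it varied between litters. Actb counts were 3.39 to 3.49 times those of Actg1 at low adhesion, and on the high substrate 3.48 times in litter 1, 3.50 in litter 2 and 3.33 in litter 3. The log2 change of Actg1 against Actb was 0.003, -0.021 and 0.028, with a mean of 0.0033 ± 0.024 (SD, n = 3 litters, exact permutation p = 0.75).

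As a share of all actin counts, Acta2 went from 13.1%, 19.1% and 14.9% to 17.4%, 23.6% and 19.2% in litters 1, 2 and 3. The gain was 4.24, 4.45 and 4.35 percentage points, an SD of 0.106 points between litters whose starting shares spread by an SD of 3.07 points. The Actb share changed by -3.33, -3.32 and -3.64 points, from a mean of 65.2% to 61.8%, and the Actg1 share by -0.912, -1.21 and -0.721 points, from 18.9% to 18.0%. With 3 litters the exact two-sided permutation p of each of these changes was 0.25, the smallest it can be. Acta1, Actg2 and Actc1 stayed at or below 0.0421%, 0.205% and 0.0117% of actin counts in every library. The lower shares of Actb and Actg1 stand beside CPM levels that were higher in each litter.

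**Figure D3:**
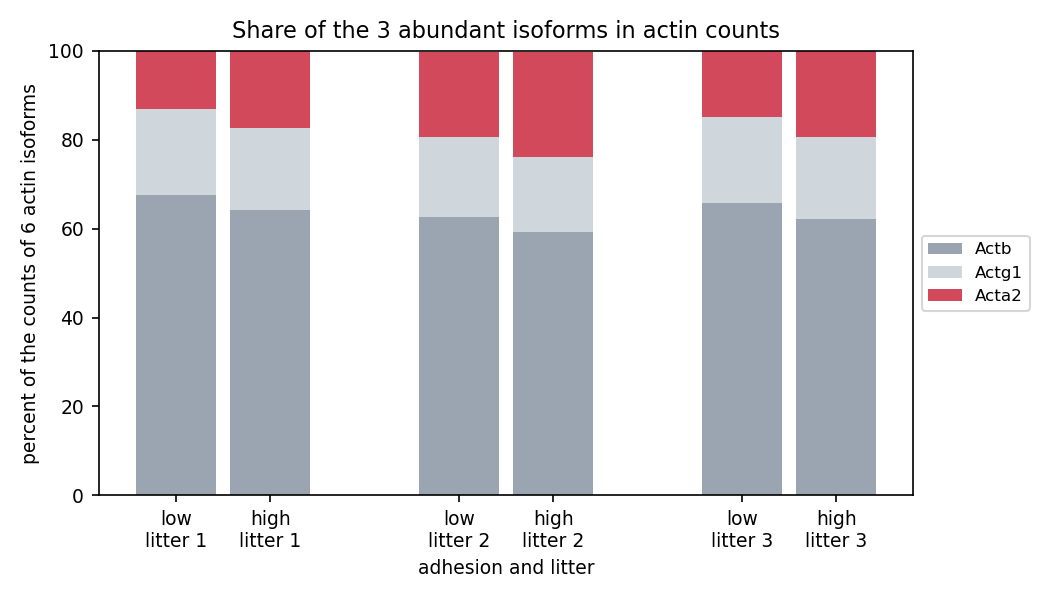
Percent of the summed counts of the 6 actin isoforms (y axis, 0 to 100) held by Actb, Actg1 and Acta2 in each library, in pairs by litter (x axis). The Acta2 segment is larger at high adhesion in each pair, by 4.24 to 4.45 points, and the other 3 isoforms are too small to be drawn.

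The 6 isoforms together held 2.25%, 2.82% and 2.33% of all counts at low adhesion and 2.65%, 3.11% and 2.59% at high adhesion. Their summed CPM at high adhesion was 1.16, 1.12 and 1.11 times that at low adhesion in litters 1, 2 and 3. Acta2 supplied 44.1%, 60.9% and 58.7% of that gain and Actb 43.1%, 31.4% and 29.0%. Acta2 thus gave a larger part of the gain than of the actin total at low adhesion in each litter.

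For a comparison of levels between genes, CPM were divided by the length of the longest protein-coding transcript (1333 bases for Actg2 to 2035 for Acta2). On this scale of CPM per kilobase, Actb was highest at both substrates (8384 ± 704 at low and 8965 ± 704 at high adhesion, SD, n = 3). Actg1 and Acta2 came next and their libraries overlapped. Actg1 was at 2394 ± 201 and Acta2 at 1941 ± 627 CPM per kilobase at low adhesion, and 2564 ± 152 and 2783 ± 765 at high adhesion (SD, n = 3), so the order of their means turned while their ranges did not separate. Actg2 (12.8 ± 14.9 at low adhesion) and Acta1 (5.17 ± 0.1197) overlapped as well, with Acta1 above Actg2 in litters 1 and 3 and far below it in litter 2. At high adhesion Actg2 was at 19.8 ± 25.01 and Acta1 at 7.55 ± 1.43 CPM per kilobase (SD, n = 3), with the same order within each litter. Actc1 was lowest, at 0.636 ± 0.501 and then 1.504 ± 0.900 CPM per kilobase. Whether reads cover the whole transcript, which this scale assumes, is not given in the sources used here.

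Litter was as large a source of variation as the substrate for several isoforms. In the edgeR F-test over the 3 litters 5 of 6 isoforms passed, beside 17.9% of all genes tested. Actg2 had the lowest adjusted p of the 6 (2.22e-18), with litter 2 above litter 1 by 3.39 on the log2 scale, over 5 times its change between substrates. Actc1 (1.88, adjusted p = 0.000184) and Acta2 (0.78, adjusted p = 2.34e-13) were also higher in litter 2 than in litter 1. Actb and Actg1 differed by 0.18 each (adjusted p = 0.000205 and 0.00218). Acta1 was the 1 isoform that did not pass in the edgeR litter test (adjusted p = 0.368), and the SD of its litters was 2.31% of the mean at low and 19.0% at high adhesion.

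Genes that work with smooth muscle actin were listed to see how far they moved with it. Of 12 such partners 9 rose, 1 fell and 2 did not pass, with a median log2 fold change of 0.37, where 4.71% of all genes tested were called higher and 4.83% lower. DESeq2 called 7 of the 12, where it called 406 of all genes and edgeR 1416. Myh11, the smooth muscle myosin heavy chain, stood at 0.916, 4.87 and 0.757 CPM at low adhesion and at 1.09, 10.7 and 1.33 CPM at high adhesion (log2 fold change 0.99 ± 0.19, standard error, edgeR adjusted p = 0.000623). Without litter 2 the change was 0.53 and did not pass (edgeR adjusted p = 0.473). Like Actg2 it was more than 5 times higher in litter 2 than in the other litters on both substrates, a pattern found in 3 of 14834 genes (0.0202%). The third was ENSMUSG00000121662, a long noncoding RNA without a symbol, and the level of 5 times was chosen after the values were seen.

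Cnn1, which encodes the actin-binding protein calponin, was also highest in litter 2, at 7.33, 32.3 and 9.99 CPM at low adhesion and 10.6, 58.3 and 17.8 CPM at high adhesion. Lmod1, a leiomodin that seeds actin filaments in smooth muscle, stood at 6.80, 22.8 and 9.92 CPM and then at 12.0, 41.4 and 21.3 CPM. Their log2 fold changes were 0.79 ± 0.08 and 0.92 ± 0.09 (standard error, edgeR adjusted p = 2.18e-07 and 3.34e-08). Tagln, transgelin, with a log2 fold change of 0.27, and the myosin light chain gene Myl9, with 0.33, also rose. These values are below the 0.53 of Acta2, and the difference was not tested. Without the replicate block 0 of the 12 partners were called, where 0.243% of all genes tested were.

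The partners did not all share the litter pattern. Des, which encodes the intermediate filament desmin, was highest in litter 1, at 66.7, 40.3 and 37.7 CPM at low and 88.4, 53.5 and 56.1 CPM at high adhesion. Cald1, caldesmon, was the partner that fell (log2 fold change -0.19, edgeR adjusted p = 0.00108), although it too was highest in litter 2. Summed markers of mural and renin cells (9 genes, Mcam holding most of the sum) were 206, 292 and 237 CPM in litters 1, 2 and 3 on the low substrate and 224, 308 and 233 CPM on the high one. In that list 1 of 8 tested genes (Myh11) rose and 2 fell (Rgs5 and Cspg4), beside 4.71% and 4.83% of all genes tested. DESeq2, which called fewer of all genes (406) than edgeR (1416), called 0 of the 8. In edgeR Rgs5 did not pass without litter 2 (adjusted p = 0.0508) and Cspg4 without litter 3 (adjusted p = 0.181). Ren1 stayed at 0.683 to 1.33 CPM. The part of mural cells in the litter difference was not tested.

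**Figure D4:**
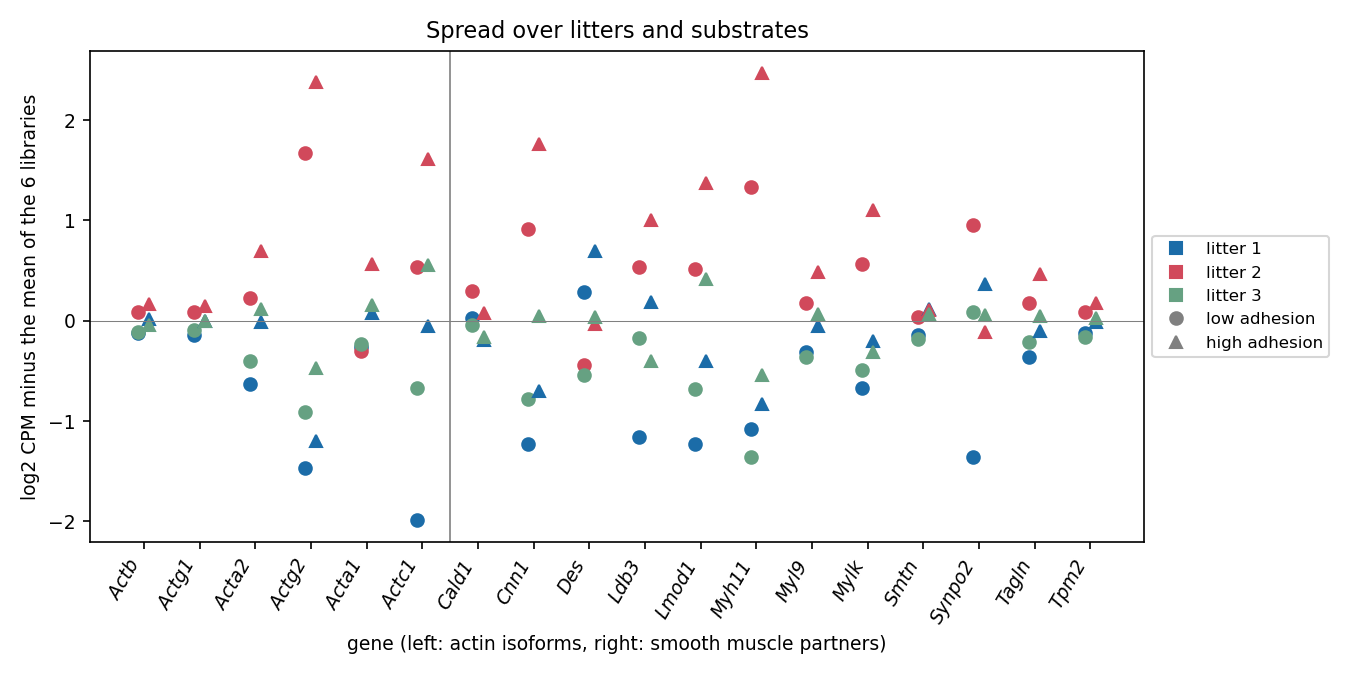
Log2 CPM of each library minus the mean of the 6 libraries (y axis) for the actin isoforms (left) and the 12 smooth muscle partners (right), with litters by colour, low adhesion as circles and high adhesion as triangles. Litter 2 (red) lies far above the others for Actg2, Myh11, Cnn1 and Mylk. For Lmod1 it is highest on each substrate, but its low adhesion value is close to that of litter 3 at high adhesion. Litter 1 (blue) is highest for Des, and Actb, Actg1 and Smtn span the smallest ranges.

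Striated muscle markers were measured because Acta1 and Actc1 are isoforms of striated muscle. Acta1 and Actc1 were called. Of 16 sarcomere and myogenic genes 8 passed the filter on low counts and none was called. Over all genes tested 9.55% were called in either direction, and with 8 genes a count of 0 is not far from that share. Beside this count of 0 in edgeR, 1 of the 8 had an unadjusted p under 0.05, and DESeq2 and limma-voom called 0. Over all genes DESeq2 called 406 and limma-voom 1298. The share of all genes at that unadjusted level was not counted, and is at least the 9.55% that were called. Of the most abundant of them, the slow troponin gene Tnni1 had a log2 fold change of 0.57 and the myosin light chain gene Myl1 one of 0.29, and neither passed (edgeR adjusted p = 0.0744 and 0.521). The summed list ranged from 12.8 to 17.4 CPM over the 6 libraries. The defining myogenic factor Myod1 was at 0 to 0.303 CPM, Myog at 0 to 0.222 CPM and the cardiac myosin gene Myh6 at 0 to 0.157 CPM, each near or below the level of 3 counts.

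Of 9 genes for SRF, its cofactors and their regulators, none rose and 1 fell, a share near the 9.55% of all genes tested that were called in either direction. Srf had a log2 fold change of 0.07 ± 0.04, Mrtfa 0.12 ± 0.06 and Mrtfb 0.06 ± 0.07 (standard error, edgeR adjusted p = 0.384, 0.231 and 0.705). The 1 that fell was Elk3, a ternary complex factor that binds SRF, with a log2 fold change of -0.19 (edgeR adjusted p = 0.0367). It lost its call without litter 2 or litter 3 and in DESeq2.

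Of 17 textbook targets of SRF and MRTF outside the actin family, 7 rose and none fell, with a median log2 fold change of 0.13, where 4.71% of all genes tested were called higher. Without the replicate block 0 of the 17 were called, where 0.243% of all genes tested were. Fhl1, a LIM-domain protein gene, had the lowest adjusted p, with a log2 fold change of 0.69 ± 0.04 (standard error, edgeR adjusted p = 3.31e-12). The filamin gene Flna (0.04), the nonmuscle myosin gene Myh9 (-0.03) and Fos (0.005) did not pass (edgeR adjusted p = 0.630, 0.683 and 0.973). Fold changes of Acta2, Acta1, Actg2 and Actc1 were thus above the median of this list and those of Actb and Actg1 below it. These targets share members with the partner list, so the counts are not separate.

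Genes whose products bind or fold actin monomers were mostly not called. The same held for all genes tested, of which 9.55% were called in either direction and 4.71% higher. Of 12 genes for monomer-binding proteins 1 rose and none fell, and the median log2 fold change was 0.09, close to that of Actb and Actg1. Where libraries were scaled by their totals alone, 4 of the 12 and 703 of all genes rose. In limma-voom 3 of the 12 and 1298 of all genes were called in either direction. The 1 that rose with TMM scaling in edgeR was Cfl2, the muscle-type cofilin. It went from 301 ± 4.80 to 346 ± 17.3 CPM (SD, n = 3, edgeR adjusted p = 0.00167). The thymosin gene Tmsb4x, whose product sequesters monomers, went from a mean of 17210 to 18321 CPM, a log2 fold change of 0.09 that did not pass (edgeR adjusted p = 0.0761). Of 22 genes for the chaperonin, prefoldin and enzymes that fold and modify actin none passed, with Cct2 at 671 and 672 CPM and Cct8 at 615 and 651 CPM (edgeR adjusted p = 0.985 and 0.209). In this list 5 genes had an unadjusted p under 0.05, and DESeq2 and limma-voom called 0. For this count and the next, the share of all genes at that unadjusted level was not counted. It is at least the 9.55% that were called. None of the 9 tested actin-related protein genes passed in edgeR, DESeq2 or limma-voom, and 1 had an unadjusted p under 0.05, with Actr3 and Actr2, the core of the Arp2/3 complex, at log2 fold changes of 0.05 and -0.0009.

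The promoters are shown because the CArG box is the element through which SRF acts on actin genes. RefSeq promoter sequences (build GRCm38.p6) matched Acta1, Acta2, Actc1 and Actg1, and did not match Actb and Actg2. The lines give the 250 bases before the annotated start, on the minus strand in each case, with CArG boxes in capitals. A CArG box was counted as CC, then 6 bases that are A or T with at most 1 exception, then GG, a motif that reads the same on both strands.
Acta2, chr19:34255374-34255623: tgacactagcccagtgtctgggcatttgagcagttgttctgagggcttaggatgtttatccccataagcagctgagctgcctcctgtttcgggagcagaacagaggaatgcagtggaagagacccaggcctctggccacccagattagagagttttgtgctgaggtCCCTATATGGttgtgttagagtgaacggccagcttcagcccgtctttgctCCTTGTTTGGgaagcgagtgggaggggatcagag
Acta1, chr8:123894776-123895025: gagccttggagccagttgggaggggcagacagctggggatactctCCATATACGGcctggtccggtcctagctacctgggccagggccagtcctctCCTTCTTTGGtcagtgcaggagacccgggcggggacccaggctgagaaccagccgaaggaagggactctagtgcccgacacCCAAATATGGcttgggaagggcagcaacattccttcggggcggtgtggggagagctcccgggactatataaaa
Actc1, chr2:114052876-114053125: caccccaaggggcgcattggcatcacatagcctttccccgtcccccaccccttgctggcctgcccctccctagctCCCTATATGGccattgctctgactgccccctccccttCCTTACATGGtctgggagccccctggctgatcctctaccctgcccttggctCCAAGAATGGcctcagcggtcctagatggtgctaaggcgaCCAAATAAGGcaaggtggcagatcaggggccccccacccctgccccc
Actg1, chr11:120348496-120348745: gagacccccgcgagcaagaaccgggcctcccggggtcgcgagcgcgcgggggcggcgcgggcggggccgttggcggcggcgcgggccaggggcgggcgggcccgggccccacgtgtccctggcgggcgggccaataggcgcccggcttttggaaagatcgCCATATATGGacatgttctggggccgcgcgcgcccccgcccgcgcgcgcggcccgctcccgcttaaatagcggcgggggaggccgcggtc
Actc1 held 4 such boxes, Acta1 held 3, Acta2 held 2 and Actg1 held 1. Of all 32851 promoters of the same length, 8.59% held at least 1 and 0.670% at least 2. Boxes with an unbroken A and T core were found in Acta1 (73 bases before the start), Actc1 (47 bases) and Actg1 (90 bases), and 1.47% of promoters held one. The Acta2 boxes, at 84 and 34 bases before the start, each had 1 G or C in the core. The isoform with a single box, Actg1, had the log2 fold change of 0.10, and those with 2 to 4 had 0.53 to 1.23. With 4 genes this is a description of these sequences, and a match to the letters is not a measured binding site.

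Genes with the most similar profile over the 6 libraries were named for each isoform among 9396 genes of at least 5 CPM. The 6 libraries share litters and only the highest coefficients are named, so they are given as a description. For Acta2 the closest were Cnn3, another calponin (Pearson r = 0.997), Antxr1 (0.993) and Mccc2 (0.990). For Actg2 they were Gng12 (0.994), Anxa1 (0.991) and Pdlim5 (0.991), for Actg1 Arl5a (0.992), Sh2d3c (0.991) and Col4a1 (0.990), and for Actb Tfg (0.994), Cox8a (0.993) and Tmem63b (0.992). For Acta1 they were Daam1, a formin that assembles actin filaments (0.998), Tsc22d2 (0.996) and Srp14 (0.995), and for Actc1 Slc7a6 (0.999), Kpnb1 (0.991) and Actn4, alpha-actinin 4 (0.990). Between isoforms r was 0.984 for Actg1 with Acta2, 0.972 for Actg1 with Actb and 0.471 for Actg2 with Acta1, the lowest of the 15 pairs.

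By the differences within litters alone, which leave out litter levels, the genes nearest to Acta2 were Trim16, Slc2a3 and Perp, with log2 fold changes of 0.54, 0.51 and 0.55. Nearest to Acta1 were Adamts5, Vldlr and Fabp3, and nearest to Actg2 were Proser2, Slc29a2 and Fabp3. Among those nearest to Actc1 were Siglecg and Ripor2, with log2 fold changes of 1.15 and 1.11. For Actb they included Dctn6 and Tmcc1 and for Actg1 they were Nme6, Slc7a6 and Serp1, and none of these 5 genes passed the edgeR test (adjusted p = 0.168 to 0.490), with log2 fold changes of 0.09 to 0.11.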

How the data were processed

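Polyadenylated RNA was measured in 6 libraries, 3 per substrate, whose titles number 3 litters. The authors ran, per the submitters' processing notes and with the build GRCm39, the tools STAR (2.7.11), featureCounts from Subread (2.1.1), SAMtools (1.22.1), fastp (0.24.0), FastQC (0.12.1) and MultiQC (1.32). Those notes give no strand setting and no rule for multiply matching reads. The authors deposited estimated counts per gene, unscaled and partly fractional. They also deposited CPM, which equal CPM computed here from the counts within 5.1e-11.

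Counts were rounded and analysed in edgeR 4.0.16 (R 4.3.3) with filterByExpr, TMM scaling (factors 0.988 to 1.01) and a robust quasi-likelihood fit with litter as block. Tests were two-sided, with Benjamini-Hochberg adjustment over all 14834 genes at 0.05. The standard error of a log2 fold change was derived from its F statistic. DESeq2 1.42.0 and limma 3.58.1 were alternatives. Litter is the block because the series' design text pairs the groups by litter. Deviations from group means correlated by 0.58, 0.58 and 0.36 within litters 1, 2 and 3. Correlations between litters were negative. With 3 libraries centred on their group mean, negative values follow from the positive ones and add nothing on the pairing. The fit was tested on simulated data. CPM per kilobase used the longest protein-coding transcript of GENCODE M21.

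The members and gene lists were chosen with earlier results of these data known. Genes were named by rule: the 6 isoforms, up to 4 called genes of lowest adjusted p per list (or the 2 of highest CPM where none was called), and per isoform the 3 genes most alike by each of 2 measures. Of these, 2 genes are not reported here. Vim, Foxd1, Epcam, Mcam, Ren1, Myod1, Myog, Myh6, Des, Cald1, Smtn, Mylk, Srf, Mrtfa, Mrtfb, Flna, Myh9, Fos, Tmsb4x and ENSMUSG00000121662 were named outside it, after their values were seen.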

Additional observations from a re-analysis of the deposited data

How the results depend on the processing

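Without the replicate block 36 genes were called (20 higher, 16 lower), in DESeq2 406 (207 higher, 199 lower), and with 1 litter left out 908 to 1553 (426 to 734 higher), the fewest without litter 3. Without the block, log2 fold changes were 0.54 for Acta1, 0.52 for Acta2, 0.0968 for Actb, 1.2228 for Actc1 and 0.63 for Actg2, and no isoform was called (edgeR adjusted p = 0.268 to 0.944). In DESeq2, Acta1 (0.53, adjusted p = 0.214) and Actb (0.0977, adjusted p = 0.290) did not pass and Actc1 had no adjusted p. Actb also failed with no filter on low counts (0.0921, edgeR adjusted p = 0.168). With 1 litter left out the ranges were 0.36 to 0.63 for Acta1, 0.0762 to 0.112 for Actb, 0.0795 to 0.117 for Actg1 and 0.37 to 0.64 for Actg2. Actg1 passed without litter 2, with library totals (0.103, edgeR adjusted p = 0.0324) and in limma-voom (0.0999, adjusted p = 0.0138). The cause of these differences was not tested. Per transcript length, the share of Acta2 changed by 4.19 points and that of Actc1 by 0.0054. Sign changes were seen in 3 uncalled genes. Cct2 was at -0.0033 without the filter and -0.0244 to 0.0261 with 1 litter left out. Actr2 was at 0.0022 with library totals, 3.51e-06 without the block and -0.0379 to 0.0355 with 1 litter left out, and Myl1 ranged from -0.0022 to 0.57. Adding the pseudogene counts to Actb and Actg1, chosen after seeing the data, changed no isoform's call, but these counts are small beside those of both genes. Actc1, at 4 to 46 counts, is limited by depth.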
